A study of Arabidopsis thaliana with 12 samples.

Results

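The 84 genes described here stood lower in the order of brightness on the array when plants in photosystem I light were treated with DCMU. They were chosen by the measured values themselves. All 3439 probes were ranked within each array column, and the rank was divided by the number of probes, so that 1 is the brightest. A probe with exactly 1 gene in the platform's annotation was kept where its median rank over the 6 DCMU columns was below that over the 6 columns without DCMU by 0.20 or more. Of 692 probes with 1 gene, 92 met this rule (13.3%), and 8 of them that the rule excludes by name were left out: GH9B8, GH9B12, GH9B16, SIRB, NTRC, SRX, GLDH and AT1G76450. Over all 3439 probes, 464 fell in rank as far (13.5%), so the probes with 1 gene met the rule about as often as the array as a whole. The falls, folds and counts below come from the same 12 columns that chose the genes and are descriptions, with no test.

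Total RNA came from wild-type Arabidopsis thaliana, ecotype C24. The 6 samples called PSI light + DCMU were from plants that grew in light specific for photosystem I and received DCMU, and the 6 called PSI light were from plants in that light alone. All 12 samples thus share the ecotype and the light. The sources used here give neither the dose nor the duration of DCMU, nor the plants' age or tissue. In such bulk RNA, fewer cells of a type and less RNA per cell cannot be told apart.

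Photosystem I light drives photosystem I more than photosystem II and so withdraws electrons from the plastoquinone pool between them. DCMU occupies the plastoquinone site of photosystem II and stops linear electron flow at its start. The redox state of the pool and the supply of reducing power and sugars are known to act on nuclear genes, including genes with no part in photosynthesis. The comparison asks which transcripts differ when electron transport is inhibited in this light.

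Columns of 1 group came in close pairs (1 with 2, 3 with 4, 5 with 6), whose Spearman correlation was 0.976 or higher, while no other pairing within a group exceeded 0.960. Each close pair was counted as 1 hybridisation, which gives n = 3 per group, although the labels do not state it. Column medians of the deposited relative intensity ran from 0.386 to 0.504 with DCMU and from 0.542 to 0.584 in PSI light. Levels below are therefore quantile-normalised relative intensities, given for the 3 hybridisations in the order of their numbers, on a scale where the brightest probe of a deposited column was 100. Each probe has its own brightness, so ranks order probes and not amounts of transcript of different genes.

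All 84 are different genes, protein coding in the reference. Most of them have no descriptive name: 73 carry a locus name alone, for which no role is given here, and 11 have a name that tells what they encode. As a group they were of middle brightness in PSI light. Their median rank was 0.301 with DCMU and 0.609 in PSI light, against 0.458 and 0.467 for all 692 probes with 1 gene. With DCMU the members stood at ranks of 0.0817 to 0.675, and in PSI light at ranks of 0.323 to 0.897. Only 15 members stood above a rank of 0.5 with DCMU, whereas 64 did so in PSI light, and 21 were below 0.2 with DCMU. A probe needs a rank above 0.20 to fall by that much, so the lack of the dimmest probes follows from the rule.

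**Figure D1:**
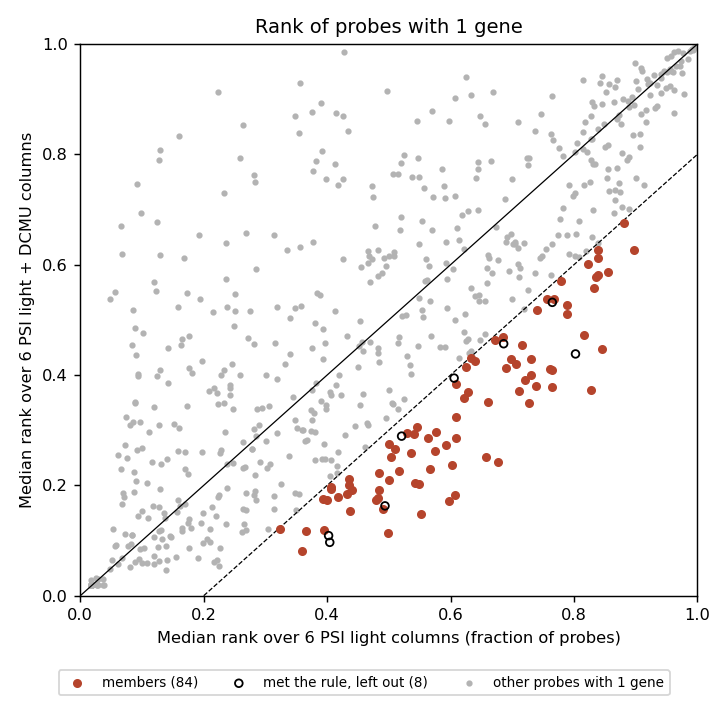
Median rank with DCMU (vertical) against median rank in PSI light (horizontal) for the 692 probes with 1 gene, as fractions of all probes. The 84 members lie on or below the dashed line that marks a fall of 0.20, with ranks in PSI light of 0.323 to 0.897, and the solid line marks equal ranks.

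The median fall in rank was -0.276, and falls ranged from -0.454 to -0.201. A fall of 0.3 or more was seen in 29 members and of 0.4 or more in 6. In log2 fold change, DCMU over PSI light, the members ranged from -1.87 to -0.40 with a median of -0.97, while the median was -0.06 over all probes with 1 gene and also over all 3439 probes. All 84 were lower, and 38 were lower by over 2-fold, a size reached by 8.23% of all probes. On the deposited scale without normalisation the ratio of DCMU to PSI light had a median of 0.406 in the members, and it was below 0.5 in 79 of them. The DCMU columns were dimmer as a whole on that scale. The share of all probes below 0.5 is not given here, so nothing is read from this count. In limma's model of the 3 hybridisations per group, 71 of the 84 passed an adjusted p of 0.05 in this direction, beside 25.0% of all probes. Behind that background are 859 lower and 624 higher probes; unscaled columns gave 1172 lower and 425 higher, columns of equal total 1058 and 474, and a correction for a trend with probe number 782 and 896. The 6 DCMU columns all lay below the 6 PSI light columns in rank for 71 members, beside 25.3% of all probes. Because the rule used these columns, nothing is read from either count.

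Fall in rank and fold change did not order the genes in exactly the same way. The 6 members with a fall of 0.4 or more had large folds, with log2 fold changes of -1.79 to -1.49. The 20 members with ranks of 0.3 to 0.5 in PSI light had a median fall of -0.248 and a median log2 fold change of -1.13. The 35 members with ranks of 0.5 to 0.7 had a median fall of -0.278 and a median log2 fold change of -0.90. The 29 members with ranks of 0.7 to 0.9 had a median fall of -0.274 and a median log2 fold change of -0.97. The members lowest in rank in PSI light thus had the largest median fold and the smallest median fall, with no steady order over the 3 ranges. A fall cannot exceed the rank in PSI light, so members of the lowest range had the least room to fall. The scale thus bounds their falls, and nothing is read from the smaller median fall. In the locus AT4G16060 the fall of -0.278 was close to the median, while the log2 fold change was -1.56. It stood at 0.140, 0.110 and 0.113 with DCMU, where 3 of its 6 columns were at the floor of 0.110, against 0.402, 0.294 and 0.376 in PSI light, so its fold is partly set by the floor.

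The 16 largest falls covered ranks from near the top to the middle of the array. AT4G37420 had the largest, to a rank of 0.373 with DCMU against 0.827 in PSI light. Its intensity was 0.396, 0.425 and 0.183 with DCMU, against 1.24, 1.14 and 0.893 in PSI light, which is 3.45-fold lower. AT4G20760 stood at 0.339, 0.262 and 0.147 with DCMU, against 0.833, 0.682 and 0.762 in PSI light. AT2G38500 stood at 0.335, 0.271 and 0.123 with DCMU, against 0.737, 0.612 and 0.738 in PSI light. These 3 loci share a feature: the hybridisation of DCMU columns 5 and 6 was the lowest of the 3, and the spread with DCMU (SD of 0.67, 0.62 and 0.76 on the log2 scale, n = 3) was wider than in PSI light (0.25, 0.14 and 0.16). The groups still did not overlap. Some members close in probe number also stood lowest in that hybridisation. AT1G17744 (probe 74, near AT4G37420 at 76) had 0.719, 0.749 and 0.352 with DCMU. AT4G20820 (probe 3437, near AT2G38500 at 3435) had 0.357, 0.315 and 0.157. AT5G38750 (probe 3361, near AT4G20760 at 3371) was highest there, at 0.336, 0.482 and 0.562. Of all members, 26 ranked lowest there, against 25 and 33 in the others. Whether the drop in that hybridisation follows probe number was not tested.

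In other loci with large falls it was not that hybridisation that was lowest. AT5G59060 stood at 0.146, 0.252 and 0.236 with DCMU, against 0.473, 0.677 and 0.633 in PSI light. AT4G22490 stood at 0.179, 0.133 and 0.279 with DCMU, against 0.576, 0.505 and 0.601 in PSI light. AT3G47980 was 3.67-fold lower, with 0.160, 0.112 and 0.147 under DCMU, against 0.494, 0.551 and 0.478 in PSI light. It was 9th in rank fall, and 1 of its DCMU columns was at the floor.

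Several of the 16 were close to equal in the 3 hybridisations of each group. AT3G06570 stood at 0.209, 0.247 and 0.209 with DCMU, against 0.627, 0.680 and 0.566 in PSI light. AT4G02040 stood at 0.259, 0.259 and 0.275 with DCMU, against 0.588, 0.615 and 0.652 in PSI light, a log2 fold change of -1.22 with a standard error (SE) of 0.06. AT2G25640 stood at 0.396, 0.372 and 0.396 with DCMU, against 0.769, 0.959 and 0.906 in PSI light. In each of these the gap between groups was far wider than the spread within either. AT4G12740 stood at 0.402, 0.349 and 0.369 with DCMU, against 0.927, 0.975 and 0.791 in PSI light. AT4G40080 stood at 0.385, 0.339 and 0.380 with DCMU, against 0.920, 0.714 and 0.837 in PSI light. AT1G02020 stood at 0.406, 0.413 and 0.55 with DCMU, against 1.07, 0.786 and 0.881 in PSI light. The last was 2.0-fold lower, and in none of the 3 did the groups overlap.

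**Figure D2:**
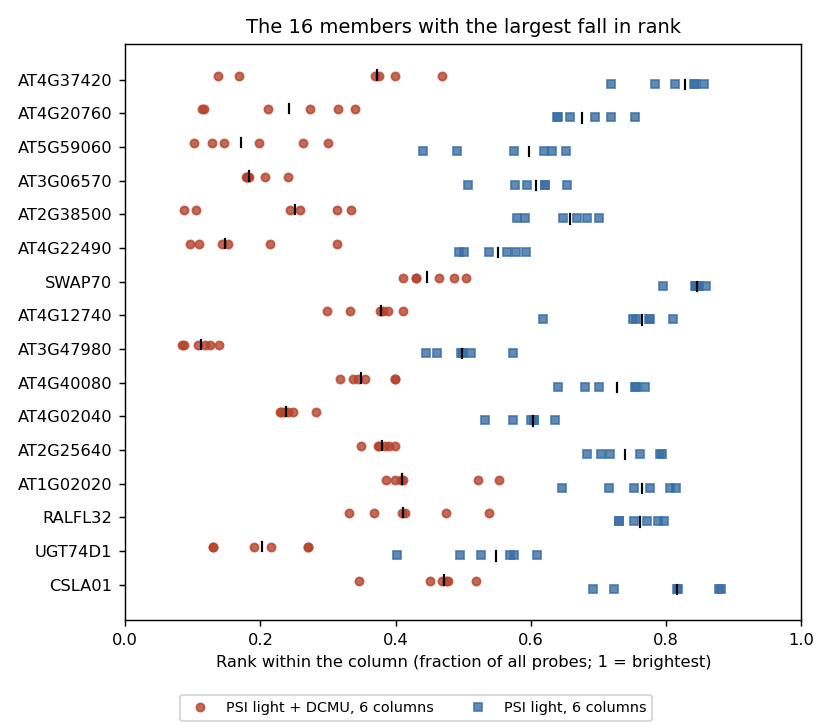
Rank within each column, as a fraction of the 3439 probes, for the 16 members with the largest falls, with the 6 PSI light + DCMU columns as circles above the 6 PSI light columns as squares and the median of each as a black tick. In each gene the groups do not overlap, and the largest fall, that of AT4G37420, is to a median of 0.373 with DCMU against 0.827 in PSI light.

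Among the 11 genes that the reference names, 3 encode plastid proteins of metabolism or membrane protection. CBL is cystathionine beta-lyase, which makes the homocysteine from which methionine is formed. It stood at 0.363, 0.397 and 0.521 with DCMU, against 0.866, 0.882 and 0.515 in PSI light, so the hybridisation of columns 5 and 6 gave nearly equal levels in both groups and the groups overlapped. Z-ISO, the 15-cis-zeta-carotene isomerase of carotenoid synthesis, stood at 0.422, 0.347 and 0.561 with DCMU, against 0.908, 0.586 and 0.663 in PSI light. CHL, the chloroplastic lipocalin, is a lumen protein that protects thylakoid lipids under stress, and it stood at 0.246, 0.151 and 0.229 with DCMU, against 0.495, 0.389 and 0.443 in PSI light. Of the 3, CHL alone kept its groups well apart, at a log2 fold change of -1.11 (SE 0.22), beside -0.80 (SE 0.27) for CBL and -0.70 (SE 0.25) for Z-ISO.

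The genes CSLA01, RALFL32 and SWAP70 belong to families of cell wall synthesis and growth signalling. CSLA01 encodes a cellulose synthase-like protein of the subfamily that makes mannan chains. It stood at 0.502, 0.483 and 0.405 with DCMU, against 1.09, 1.44 and 0.796 in PSI light, and its PSI light levels were the most spread of these 3 genes (SD 0.43 on the log2 scale). RALFL32 encodes a peptide of the RALF family, secreted signals that act on cell expansion through receptor kinases. Its levels of 0.480, 0.399 and 0.406 with DCMU lay well below 1.005, 0.918 and 0.842 in PSI light. SWAP70 encodes a guanine nucleotide exchange factor. With 0.474, 0.428 and 0.482 under DCMU, against 1.25, 1.22 and 1.11 in PSI light, it was 2.59-fold lower (log2 fold change -1.37, SE 0.07). It was also among the 4 brightest members by rank in PSI light.

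UGT74D1 and DI21 relate to hormone and stress metabolism. UGT74D1 is a UDP-glucosyltransferase that attaches glucose to auxins and related compounds. It stood at 0.162, 0.229 and 0.288 with DCMU, against 0.614, 0.567 and 0.454 in PSI light, which is 2.46-fold lower with no overlap. DI21 was named for its induction by drought. It stood at 0.398, 0.391 and 0.437 with DCMU, against 0.820, 0.957 and 0.726 in PSI light, a log2 fold change of -1.02 (SE 0.12). Both were lower in all hybridisations with DCMU than in any of PSI light.

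The remaining 3 named genes act on DNA. TCP15 encodes a transcription factor of the TCP family, which regulates cell proliferation and organ growth. It stood at 0.335, 0.322 and 0.414 with DCMU, against 0.828, 0.520 and 0.561 in PSI light, and single columns of the 2 groups overlapped in rank. AGL54 encodes a MADS-box transcription factor and stood at 0.267, 0.137 and 0.203 with DCMU, against 0.470, 0.496 and 0.475 in PSI light. Its spread lay almost wholly in the DCMU group, with an SD of 0.48 on the log2 scale with DCMU and 0.04 in PSI light (n = 3 each). AT1G78790, or MHF2, encodes a histone-fold protein that limits meiotic crossovers, and it stood at 0.220, 0.181 and 0.253 with DCMU, against 0.457, 0.346 and 0.453 in PSI light.

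**Figure D3:**
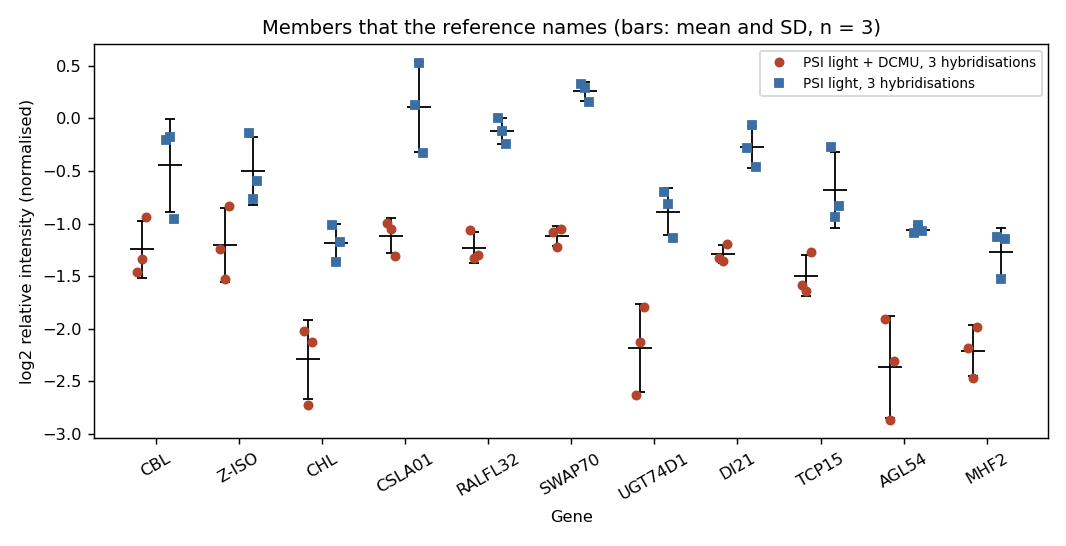
Normalised log2 relative intensity of the 11 members with a descriptive name, with PSI light + DCMU (circles) left of PSI light (squares), 3 hybridisations each, and bars for mean and SD. On this normalised scale SWAP70 has the widest difference at a log2 fold change of -1.37, and CBL and Z-ISO show the narrowest at -0.80 and -0.70 with TCP15 at -0.81.

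The brightest members in PSI light, beside SWAP70, were AT1G17744, AT4G33500 and AT1G07460. AT1G17744 stood at 0.719, 0.749 and 0.352 with DCMU, against 1.85, 1.62 and 1.23 in PSI light. AT1G07460 stood at 0.549, 0.903 and 0.605 with DCMU, against 1.27, 1.37 and 1.02 in PSI light. AT4G33500 stood at 0.813, 0.739 and 0.411 with DCMU, against 1.54, 0.859 and 1.46 in PSI light, and single columns of its groups overlapped. These genes remained above the middle of the array with DCMU, at ranks of 0.627, 0.675 and 0.586 for AT1G17744, AT4G33500 and AT1G07460.

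The members nearest the threshold were AT1G69910, AT4G33500, AT4G22650 and AT2G28660, with changes in rank of -0.208, -0.205, -0.202 and -0.201. AT1G69910 stood at 0.534, 0.604 and 0.598 with DCMU, against 1.05, 0.965 and 0.848 in PSI light. AT4G22650 stood at 0.191, 0.151 and 0.140 with DCMU, against 0.188, 0.489 and 0.334 in PSI light, so that 1 PSI light hybridisation was as low as those with DCMU. AT2G28660 stood at 0.392, 0.421 and 0.501 with DCMU, against 0.542, 0.672 and 0.785 in PSI light. Probes just outside looked much the same. AT2G06040 (-0.199) stood at 0.886, 0.683 and 0.501 with DCMU, against 1.19, 1.36 and 0.622 in PSI light. AT2G47390 (-0.199) stood at 0.551, 0.472 and 0.544 with DCMU, against 0.843, 0.780 and 0.832 in PSI light. The first overlapped between groups and the second did not. AT1G15140 (-0.195) stood at 0.603, 0.846 and 0.645 with DCMU, against 0.976, 1.34 and 1.06 in PSI light. PRA1.B3 (-0.194) stood at 0.196, 0.174 and 0.188 with DCMU, against 0.382, 0.333 and 0.401 in PSI light. The threshold thus divides probes with like values.

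Most members met the rule whichever hybridisation was left out. With each of the 6 hybridisations left out in turn, 60 of the 84 met the rule every time and 24 missed it at least once, 21 of those with a fall under 0.25. The 24 include Z-ISO and MHF2 among the named genes. Within the groups the members had a median SD of 0.24 with DCMU and 0.18 in PSI light on the log2 scale (n = 3), beside 0.20 and 0.19 for all probes with 1 gene. The median rank of the 84 was 0.333, 0.314 and 0.306 in the 3 DCMU hybridisations, against 0.599, 0.616 and 0.598 in PSI light. The 16 members with the largest falls were among the 60, which the size of their falls largely fixes. The least steady member was AT1G50750, at 0.203, 0.554 and 0.151 with DCMU, against 0.401, 0.524 and 0.185 in PSI light. It differed more between hybridisations of a group than between groups.

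Many members lay among probes that were also lower with DCMU. For each probe, the median change in rank of the 20 probes nearest in number, named or not, was taken. It was below 0 for 57 of the 84 members (67.9%) and for 49.0% of all probes with 1 gene, with medians of -0.05 and 0.00. CBL and UGT74D1 have consecutive numbers, 2021 and 2020, and their neighbours had median changes of -0.179 and -0.165, the lowest values of the 84. The neighbours of CSLA01 stood at -0.145, those of AGL54 at -0.121, of SWAP70 at -0.120 and of RALFL32 at -0.119. The neighbours of CHL, TCP15 and DI21 stood at 0.056, 0.046 and 0.008. The sources used here do not say whether the number marks a place on the array, and the part of such a trend in the falls was not tested.

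After a running median over 41 neighbouring probes was removed, all 84 members stayed lower, which the choice of members largely fixes. Their median log2 fold change was then -0.79, against -0.01 over all probes. Of the 84, 23 were lower by over 2-fold, and the share of all probes that low is not given here. In 15 members less than 50% of the log2 fold change was left. CBL stood at -0.20 after this step and Z-ISO at -0.22, while CHL stood at -1.26, DI21 at -1.12 and TCP15 at -0.92, each further from 0 than before. SWAP70 stood at -0.88, UGT74D1 and AGL54 at -0.79, CSLA01 at -0.77, RALFL32 at -0.72 and MHF2 at -0.48. Among the loci with the largest falls, AT4G20760 stood at -1.75 and AT3G06570 at -1.69, against -1.22 for AT4G37420. AT2G28660, the member nearest the threshold, stood at -0.10.

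**Figure D4:**
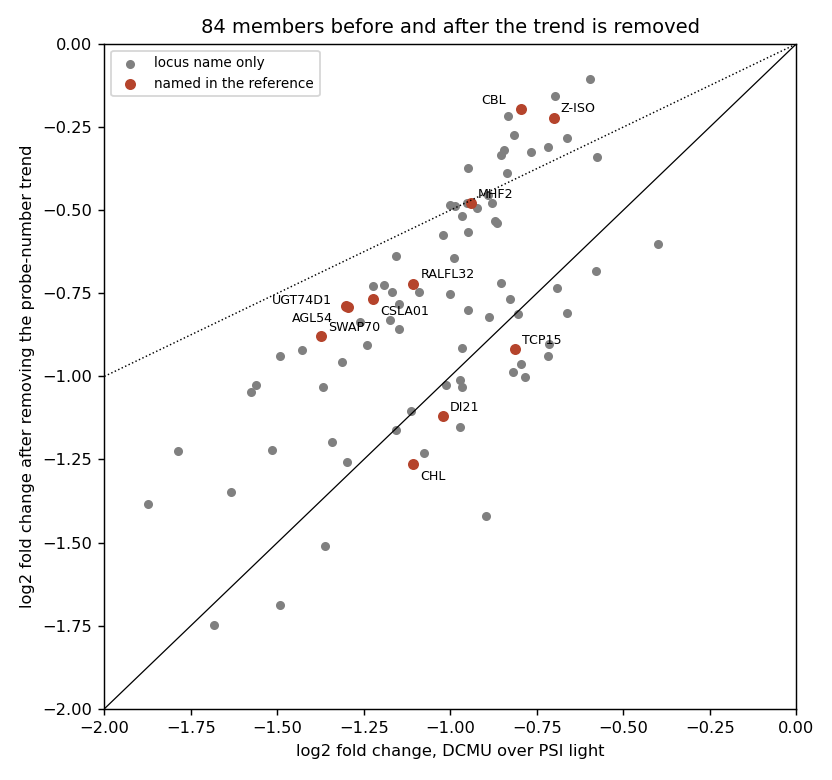
Log2 fold change, DCMU over PSI light, of the 84 members as fitted (horizontal) and after the running median over neighbouring probe numbers was removed (vertical). The solid line marks equal values and the dotted line 50% of the fitted value. CBL and Z-ISO lie above the dotted line at -0.20 and -0.22, and CHL, DI21 and TCP15 lie below the solid line.

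A second probe lists the gene of 9 members, in each case among 3 or 4 genes, and in 8 of these its signal was above the floor. The second probe of AT1G24240 changed in rank by -0.229, beside -0.268 for the member's own probe. Those of AT4G32340, AT1G13970 and AT2G43180 changed by -0.166, -0.135 and -0.131. That of AT5G19210 changed by -0.042. The second probes of AT2G13690 and AT1G24530 stood at 0.036 and 0.032, and that of AGL54 at 0.175. For AT3G58570 the second probe was at the floor in every column. Thus 1 of 9 second probes fell by the threshold, and 3 changed in the other direction. A probe that lists several genes need not report the member, and which of its genes gave the signal was not tested.

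**Figure D5:**
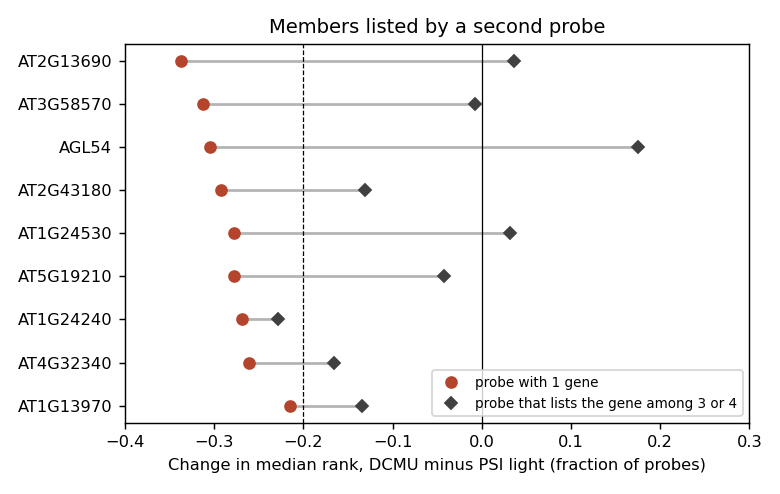
Change in median rank, DCMU minus PSI light, for the 9 members whose gene a second probe lists, with the member's own probe (circle) and the probe that lists 3 or 4 genes (diamond). The dashed line marks -0.20. The second probe of AT1G24240, at -0.229, is the 1 that lies beyond it, and that of AGL54 lies at 0.175.

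In the order of genes of the TAIR10.1 reference, 4 pairs of members lay at most 10 genes apart. CSLA01 changed in rank by -0.345 and AT4G16610 by -0.222, AT1G11820 by -0.24 and AT1G11800 by -0.211. AT2G48090 changed by -0.339 and AT2G48130 by -0.338, AT4G20760 by -0.434 and AT4G20820 by -0.234. The members of a pair were thus close in some pairs and not in others. A further 18 genes with a probe of their own lay within 5 genes of a member without being members. Since they are not members, the rule itself keeps falls of 0.20 or more out of these genes. Their change in rank had a median of -0.033, and 10 of the 18 were lower. They ranged from -0.163 for AT4G33480, near AT4G33500, to 0.679 for AT5G40030, which lies 4 genes from the member AT5G40070.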

How the data were processed

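Relative intensities of 3439 probes in 12 columns, 6 per group, were used as the authors deposited them. Neither the image analysis nor any step before the scaling to a brightest probe of 100 is given in the sources used here. Arrays have no read depth, and their number limits the precision. No label tells whether the samples were separate cultures, and the spread behind the p-values may be technical. Ranks were taken on the deposited intensity with ties averaged. For levels, columns were quantile normalised, raised where lower to a floor of 0.110 (the 5th percentile of positive values) and turned to log2. Columns 1 and 2, 3 and 4, and 5 and 6 of a group were averaged, and levels are the antilog of these means. limma 3.58.1 (R 4.3.3) compared 3 with 3 over all probes, at an adjusted p of 0.05 (Benjamini-Hochberg). The fit was tested on simulated data. Figures used Python 3.11.15 and matplotlib 3.10.9. In the platform annotation 692 probes list 1 gene, 870 list several and 1877 list none. All 84 members matched the TAIR10.1 reference by gene identifier.

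The members and lists were chosen with earlier results of these data known. Values per hybridisation follow a rule and cover the 16 largest falls, the 4 members brightest in PSI light, and the 4 probes on each side of the threshold. The 11 members with a descriptive name, and others such as AT4G16060 and AT1G50750, were added after the values were seen. Keyword classes were planned, but the reference tables used here hold no descriptions, and 80 of the 84 members fell in no class. The order of genes along the chromosomes came from that reference. Promoters, proteins and coordinates in bases were not analysed here.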

Additional observations from a re-analysis of the deposited data

Results flagged for a closer look

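Of 58 groups of 6 columns (29 members with values per hybridisation, in both groups), 4 held a column far from the others by Dixon's test with a critical value of 0.625. AT4G16060, AT1G50750 and the 4 probes just outside the threshold were not among the 29. Chance picks out about 5% of groups when columns are independent, and here columns come in duplicates. With DCMU, CSLA01 was lowest in column 5, at -1.49 on the log2 scale, while its other 5 columns lay between -1.12 and -0.92, so that the gap took 0.638 of the range. DI21 with DCMU was highest in column 6, at -1.11, above other columns of -1.36 to -1.28, a gap of 0.669 of the range. In PSI light, column 5 of SWAP70 was lowest at 0.02, below other columns of 0.27 to 0.37, a gap of 0.726 of the range. Column 6 of AT4G12740 in PSI light was at -0.62, below other columns of -0.17 to 0.09, a gap of 0.631 of the range. For all 4 genes the DCMU columns lay below the PSI light columns in rank with these columns included.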

How the results depend on the processing

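The members' median log2 fold change of -0.97 became -1.32 unscaled, -1.22 with columns of equal total, -0.88 under cyclic loess, -0.79 after the probe-number trend was removed and -0.78 when an offset replaced the floor. The median of all probes moved too, to -0.32 unscaled and -0.23 with equal totals, against -0.06. For cyclic loess and the offset the cause was not tested. All members tested were lower in every setting run, which the choice of members largely fixes. With dim probes left out, 798 of 1720 probes passed, and 37 of 38 members. The set of probes tested differed, and its part in these counts was not tested. The rule at a fall of 0.15 kept 127 genes and at 0.25 kept 54. Without 1 hybridisation it kept 80 to 91, 54 to 65 of the 84 members passed limma beside 1144 to 1294 of all 3439 probes (643 to 723 of them lower), and the median ran from -1.01 to -0.97. AT3G47980 had the largest fold of the members as fitted, but this lead did not hold in every setting. AT4G37420 exceeded it unscaled (-2.12 against -2.09), with equal medians (-1.76 against -1.74) and with the offset (-1.42 against -1.24). After the probe-number trend was removed, AT4G20760 was the lowest member at -1.75, against -1.38 for AT3G47980. With the replicate block, 68 members and 1394 probes passed, against 71 and 1483 without it. Same-numbered hybridisations of the groups deviated together, with correlations of 0.099, 0.306 and 0.267. In deviations from the group mean, each of the 12 columns was compared with the columns of the other group. It correlated best with the column of its own number there, at 0.095 to 0.303. Both are hints of a pairing, which no label states, and the main fit did not use it. With 12 columns as separate samples, 83 members and 2109 probes passed. Probes past the threshold divided into 624 higher and 859 lower, against 774 and 794 under cyclic loess. For the 29 genes examined for outliers, 411 of 480 alternative values moved by at most 1 SD and none changed sign. Settings that only changed how columns were grouped, or left out dim probes, cannot move a fold change and are among the 480. The choice of members largely fixes the sign. In 25 of the 29 genes at least 1 value moved by more than 1 SD. Values under 0.110 have no order on the normalised scale.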
